A study of Mus musculus with 4 samples.

Results

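Neurons set the gain of their synapses through receptors for slow transmitters and modulators: serotonin, noradrenaline, dopamine, acetylcholine, histamine, adenosine, opioids, neuropeptide Y and endocannabinoids, and through the metabotropic and kainate receptors for glutamate and the GABA-B receptor. The receptors examined here were chosen by gene symbol, as the probe sets with a single symbol in 1 of these families whose intensity was above 100 on all 4 arrays of the series. They came to 14 genes read by 15 probe sets, out of 44 receptor genes with 53 probe sets whose symbols matched, and out of 8251 named genes on the array. A probe set is made of several short DNA oligonucleotides directed at the same transcript. Its intensity is a linear value that also depends on how well they bind, so it does not rank different genes by level.

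The tissue was CA1, the hippocampal field of pyramidal neurons needed for memory of places. All 4 groups were young male C57BL/6J mice with no genetic change named, in a condition the labels call shock alone, and they differ in the time of RNA extraction, which was 1, 2, 4 or 6 h after the last shock. Every mouse entered the new chamber 2 h before training, received 3 foot shocks of 0.5 mA lasting 1 s, each after 2 min, and stayed in the chamber for 1 h after the last one. Each time has 1 array, the labels do not say how many mice went into it, and unshocked mice were not analysed here. There was thus no replicate error and no test; a span, the highest of the 4 arrays over the lowest, was read against the spans of the other probe sets on the same arrays, and 1.5-fold served as a limit for description.

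Most of these receptors signal through G proteins. Receptors coupled to Gs raise cyclic AMP, those coupled to Gi or Go lower it and open potassium channels, and those coupled to Gq release calcium from stores. A few are ion channels that the transmitter opens directly. In CA1 such receptors sit on pyramidal cell dendrites, on interneurons, and on the terminals of axons that enter from other regions, whose own receptor mRNA stays in the distant cell body.

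Some properties of the arrays bear on all of the values. The control probe sets for the 2 ends of a transcript gave 3′ over 5′ ratios that peaked on the 2 h array, with 2.70 for actin and 4.82 for Gapdh there, against 1.74 to 1.84 and 3.24 to 3.98 elsewhere. The choroid plexus transcript Ttr read 110.5, 89.9, 197.5 and 4482 at 1, 2, 4 and 6 h. The 3 measured genes of 11 listed for choroid plexus and ependyma summed to 1716, 1361, 1844 and 3131. Kl and Igf2 were highest at 6 h, while Foxj1 was lowest there. Among the marker lists, the 3 measured neocortical genes of 7 listed summed to 3875, 3637, 2705 and 3227, lowest at 4 h, and the 3 measured CA1 pyramidal genes of 8 listed summed to 2961, 2739, 4227 and 3653, highest at 4 h. Of these 3, Wfs1 and Neurod6 were highest at 4 h, while Pou3f1 was lowest there, at 484.3, 454.8, 355.0 and 359.2. The 3 measured genes of 7 listed for dentate granule cells and CA3 summed to 1094, 1081, 1382 and 1089, also highest at 4 h. Among them, Dsp and Lct were highest at 4 h, while Bok was lowest there. The 5 measured genes of 6 listed for thalamus and habenula summed to 1292, 2028, 1644 and 1445. The sum was lowest on the 1 h array that served for the later comparisons, but the genes differed. Tcf7l2 read 121.1, 494.2, 471.1 and 358.7, on a probe set that may read a family of related sequences. Rora was also lowest at 1 h, while Calb2 and Prkcd were lowest at 6 h and Tac2 at 4 h. The part of these tissue markers in the receptor values was not tested. The 4 CA1 markers with a probe set included Camk2a, a kinase abundant in pyramidal neurons, at 109.9, 30.5, 37.7 and 35.9, so a low reading here does not show that a transcript was missing. In dissected tissue, a lower share of a cell type and less RNA per cell cannot be told apart.

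Of the 12 receptor families with a probe set, 7 had a measured member. Serotonin receptors had the most measured genes, 6 of 11, followed by neuropeptide Y receptors with 2 of 5 and nicotinic acetylcholine receptors with 2 of 8. The opioid and nociceptin, adrenergic, kainate and GABA-B families had 1 each, of 4, 2, 3 and 1 genes. No dopamine, muscarinic, histamine or cannabinoid receptor, and not the metabotropic receptor Grm8, read above 100 on all 4 arrays. Of the 38 probe sets outside, 16 were above 100 on 1 to 3 arrays and 22 on none. Over all 12422 probe sets other than controls, 6456 or 52.0% were above 100 on all 4. Counted in genes, 5031 of the 8251 named genes were measured in this way, a larger share than the 14 of 44 receptor genes. The lowest reading among the members was 116.6, for Npy1r, and the nearest probe set outside was that of the dopamine receptor Drd2, at 99.6 at 4 h.

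**Figure D1:**
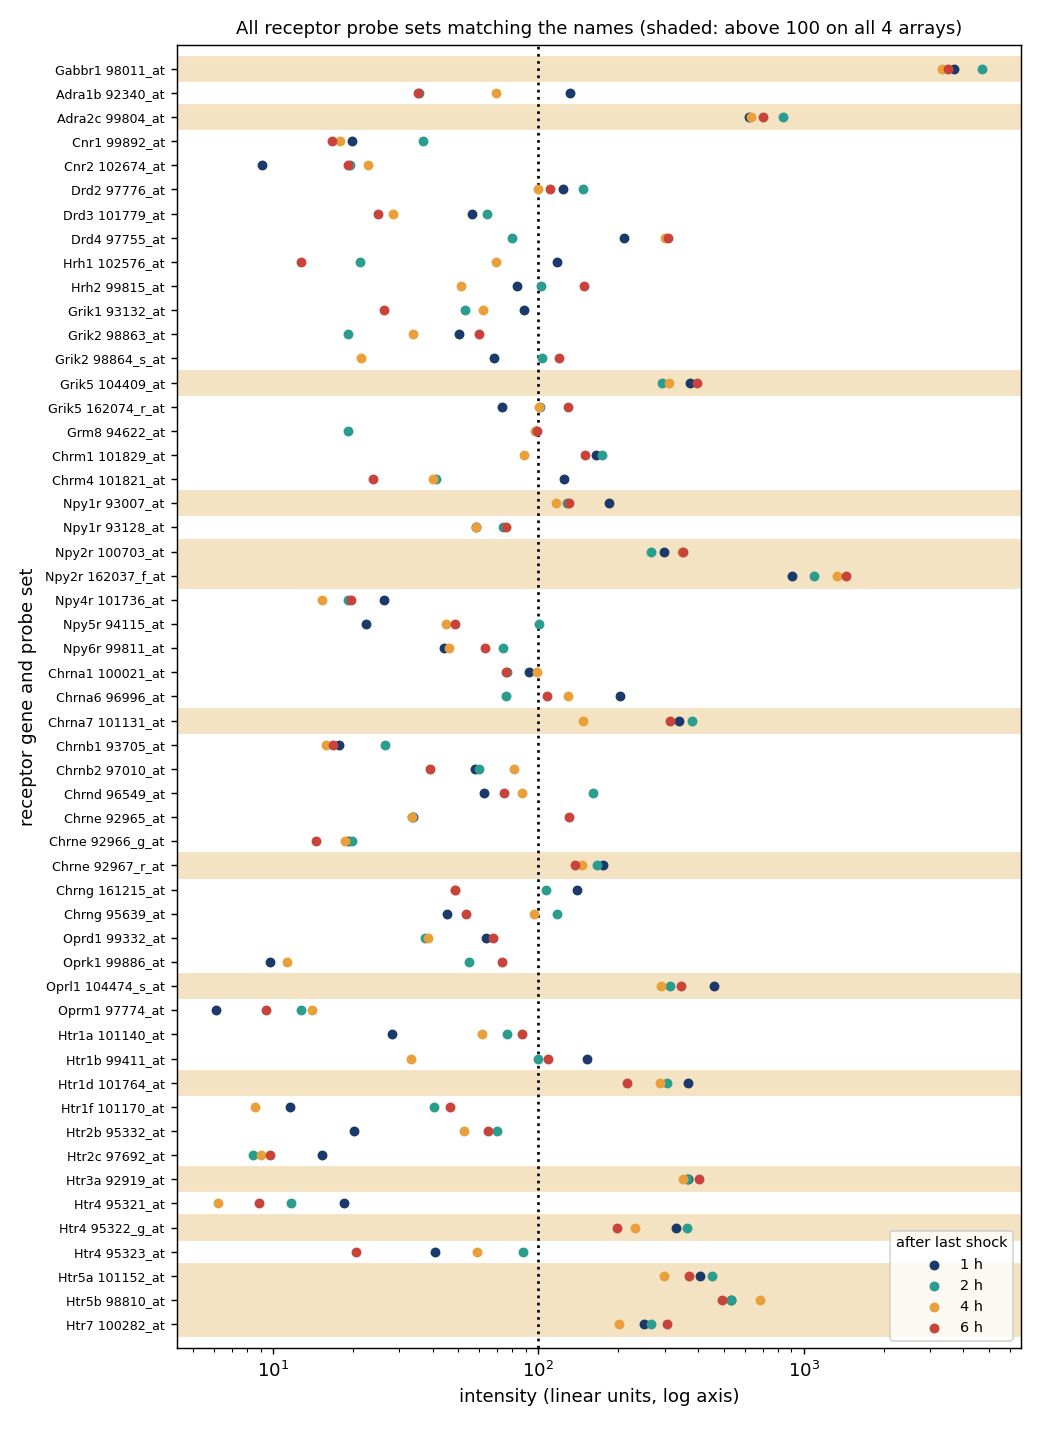
Intensity (log axis) of each of the 53 receptor probe sets at 1, 2, 4 and 6 h after the last shock, 1 point per array, ordered by family, with shading for the 15 above 100 on all 4 arrays and a dotted line at 100. The probe set of Chrna7 is low at 4 h with 146.9, and that of Htr2c lies near 10 on all 4 arrays.

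Several receptors that CA1 is known for lay among the 22 probe sets below 100 throughout. Htr1a, the serotonin receptor of pyramidal cell membranes, read 28.1, 76.2, 61.4 and 87.1, and Cnr1, the cannabinoid receptor of cholecystokinin interneurons, read 19.9, 36.7, 17.9 and 16.7. Htr2c, the serotonin receptor that choroid plexus is rich in, read 15.3, 8.4, 9.0 and 9.8. As with Camk2a, these values give neither a level nor a change for the gene. The opioid receptors Oprd1, Oprk1 and Oprm1 were also below 100 on each array, between 6.1 and 72.9.

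Chrna7 varied most. It encodes the alpha-7 nicotinic subunit, which alone forms a calcium-permeable channel for acetylcholine and is prominent on hippocampal interneurons. Its probe set read 340.0, 379.6, 146.9 and 312.6 at the 4 times. The 4 h array was the low one, 2.31-fold below 1 h and 2.58-fold below 2 h, while the other 3 lay within 1.21-fold of each other. Chrna7 was the only member to stand apart at a single time, meaning that its value there exceeded, or fell short of, every other array by 1.5-fold or more. That was 1 of 15 members, or 6.67%, against 6.30% of all 6456 probe sets, and 1.01% of all stood apart as lower at 4 h. It was also the only member with a span of 2-fold, which 6.41% of all reached, so the share among receptors was near the background. No second probe set reads Chrna7. It also stood apart without the 2 h or the 6 h array, which had to follow because fewer arrays were then compared.

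The RefSeq sequence around the start of Chrna7, 250 bases before to 50 after it, is shown because this gene carried the widest difference. It lies at chr7:63212477-63212776 on the minus strand of GRCm38.p6 and is 70.0% G and C, against a median of 52.7% for 32851 such windows. Neither of 2 motifs searched on both strands was found in it, the cyclic AMP response element TGACGTCA, which 1.79% of all windows hold, or the Egr1 site GCGTGGGCG, which 0.612% hold.
Chrna7: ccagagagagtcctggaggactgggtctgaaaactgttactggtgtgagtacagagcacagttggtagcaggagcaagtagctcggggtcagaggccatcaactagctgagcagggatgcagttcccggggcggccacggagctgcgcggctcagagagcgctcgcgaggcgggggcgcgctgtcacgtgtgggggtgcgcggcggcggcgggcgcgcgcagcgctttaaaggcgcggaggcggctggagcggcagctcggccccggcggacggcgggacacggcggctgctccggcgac

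The other nicotinic member was Chrne, the epsilon subunit of the adult muscle receptor. It read 175.8, 166.9, 145.6 and 137.1, lower at each later time but spanning only 1.28-fold. This probe set has the suffix _r_at, marking one that could not be designed to the usual rules. The 2 other Chrne probe sets were at 14.6 to 19.9 on all arrays and at 33.8, 33.4, 33.4 and 130.9. They did not share the order of the first, and the 4 other muscle subunit genes, Chrna1, Chrnb1, Chrnd and Chrng, had no probe set above 100 on all 4 arrays.

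Among the remaining channels, Htr3a varied least of all members. It encodes the serotonin-gated cation channel found on a class of hippocampal interneurons, and it read 366.8, 364.9, 352.2 and 402.6, a span of 1.14-fold. Grik5, the high-affinity kainate subunit that needs a partner subunit to form a channel, read 372.2, 293.9, 311.5 and 397.8. It was lower on the 2 middle arrays than on the first and last, with a span of 1.35-fold. The second Grik5 probe set, at 73.2, 101.5, 100.6 and 129.2, was highest at 6 h as well but lowest at 1 h instead of 2 h.

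The 6 serotonin receptors differed in their courses. Htr1d, a Gi-coupled receptor of axon terminals, read 365.9, 304.8, 287.1 and 216.1, lower at each later time and 1.69-fold lower at 6 h than at 1 h. Htr4, a Gs-coupled receptor, read 330.5, 362.4, 231.1 and 197.8, with the first 2 arrays above the last 2 and the 6 h value 1.67-fold below that at 1 h. Both were thus lowest at 6 h. The order of Htr1d was not the same after each array was scaled to a common median, where 2 h read 292.1 and 4 h 294.6. Htr4 rests on a probe set with the suffix _g_at, shared within a group of similar sequences, and its 2 other probe sets were below 100 on every array.

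Htr5a and Htr7 were lowest at 4 h. Htr5a, a Gi-coupled receptor, read 405.8, 450.9, 298.2 and 370.4, with the 4 h value 1.36-fold below that at 1 h. Htr7, a Gs-coupled receptor, read 249.3, 265.0, 202.1 and 306.8, with the 6 h value highest and 1.52-fold above that at 4 h. Htr5b, functional in rodents and a pseudogene in humans, went the other way. It was highest at 4 h, reading 533.4, 531.7, 684.5 and 490.6, the only member with its highest value on that array.

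The start of Htr7 is shown because it was the only 1 of 14 start windows, from 11 member genes with an entry, that held the Egr1 site, here as its reverse complement in capitals. Of all windows 0.612% hold this site. The Htr7 window lies at chr19:36057311-36057610 on the minus strand of GRCm38.p6. It is 81.0% G and C, against a median of 52.7% for all windows, and the site itself is rich in G and C. No member window held the cyclic AMP response element.
Htr7: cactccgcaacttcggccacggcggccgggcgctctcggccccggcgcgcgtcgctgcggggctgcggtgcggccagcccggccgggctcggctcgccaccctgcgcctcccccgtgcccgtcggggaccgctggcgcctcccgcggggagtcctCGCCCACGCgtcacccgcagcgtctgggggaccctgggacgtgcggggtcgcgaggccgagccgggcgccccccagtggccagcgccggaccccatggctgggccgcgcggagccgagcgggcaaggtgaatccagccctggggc

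Npy2r and Npy1r are both Gi-coupled receptors for neuropeptide Y. Their probe sets above 100 on all 4 arrays were highest at opposite ends of the course. Npy2r is the receptor through which the peptide reduces glutamate release in the hippocampus. Its probe set with the suffix _f_at, given to sets that may read a family of related sequences, read 907.2, 1096, 1331 and 1447, higher at each later time, with 6 h 1.59-fold above 1 h. Its second probe set read 297.6, 265.2, 348.8 and 349.8, with 6 h 1.18-fold above 1 h. Both were higher on the 2 later arrays than on the 2 earlier, but they differed in which array was lowest, 1 h for the _f_at set and 2 h for the second. Npy1r read 185.5, 127.8, 116.6 and 130.5, highest at 1 h and 1.59-fold lower at 4 h. Its second probe set, between 58.1 and 75.6, was highest at 6 h. Npy, the gene of the peptide itself, read 2597, 2877, 2668 and 2408, a span of 1.20-fold.

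The start of Npy2r, the only gene with 2 measured probe sets, lies at chr3:82548036-82548335 on the minus strand of GRCm38.p6. It is 57.7% G and C and held neither motif.
Npy2r: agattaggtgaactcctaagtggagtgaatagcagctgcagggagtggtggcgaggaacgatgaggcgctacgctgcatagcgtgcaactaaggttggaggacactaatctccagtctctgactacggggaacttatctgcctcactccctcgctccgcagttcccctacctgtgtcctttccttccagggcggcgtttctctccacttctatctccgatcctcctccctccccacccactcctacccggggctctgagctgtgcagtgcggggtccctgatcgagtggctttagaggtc

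Oprl1, the receptor for the opioid-related peptide nociceptin, resembled Npy1r in being highest at 1 h. It read 457.8, 313.0, 290.3 and 346.2, 1.58-fold lower at 4 h than at 1 h. Its probe set has the suffix _s_at, shared between transcripts. Gabbr1, which binds GABA in the GABA-B receptor, and Adra2c, a Gi-coupled receptor that limits noradrenaline release, were highest on the 2 h array. Gabbr1 read 3682, 4706, 3329 and 3483, with 2 h 1.28-fold above 1 h. Adra2c read 621.5, 838.6, 633.6 and 704.6, with 2 h 1.35-fold above 1 h. On that array the actin ratio was 2.70, and the part of RNA quality in these readings was not tested.

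**Figure D2:**
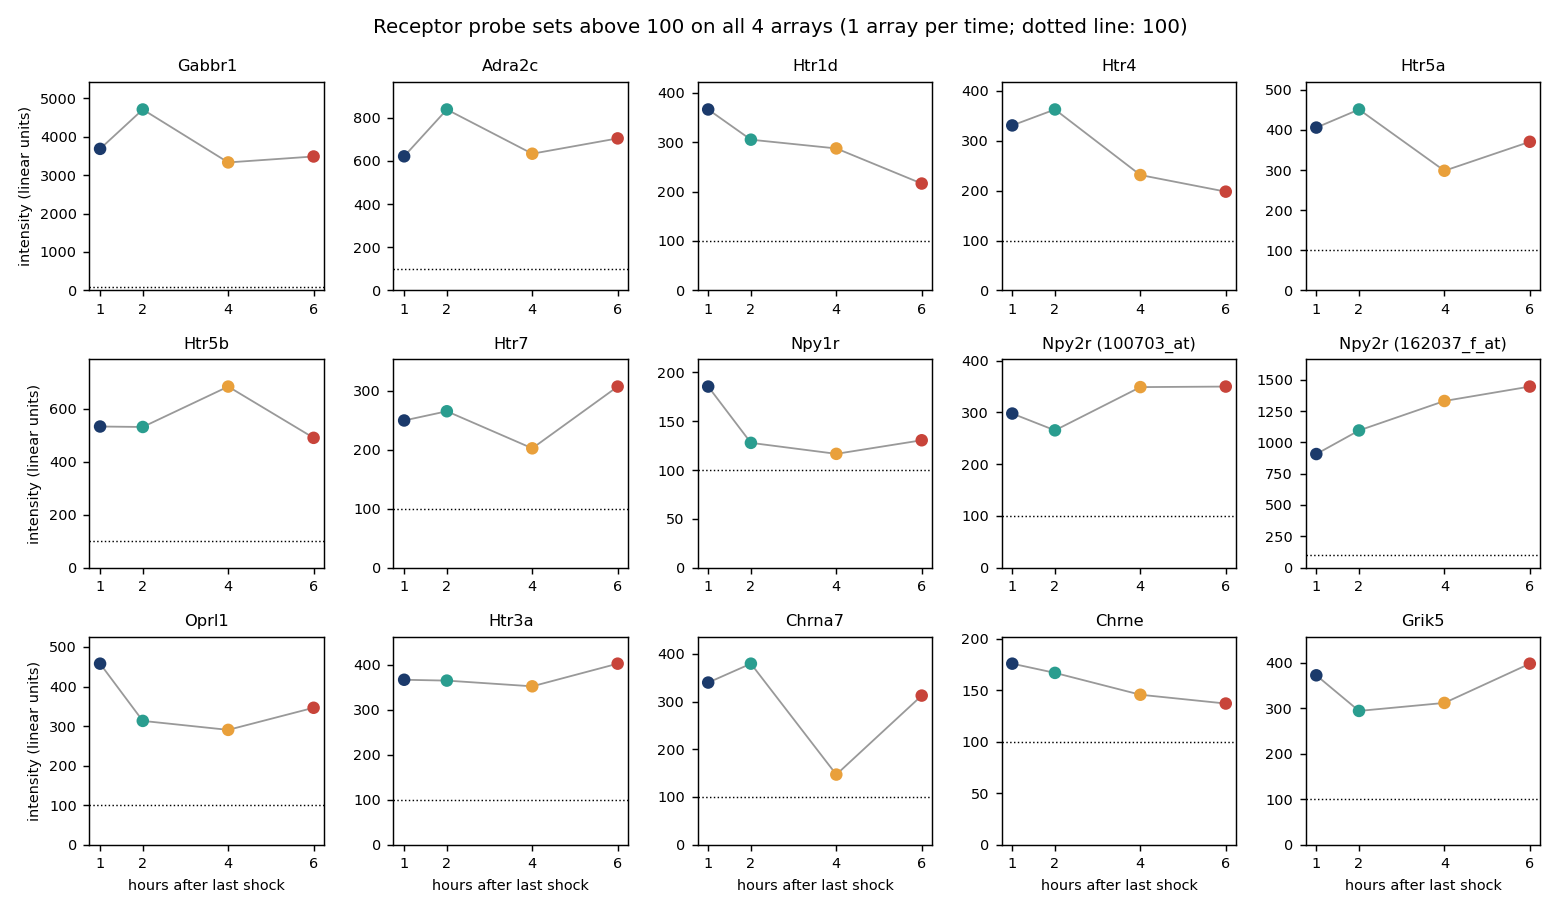
Intensity (linear axis from 0, its own scale in each panel) of the 15 receptor probe sets against hours after the last shock, 1 array per time, with a dotted line at 100. Chrna7 is lowest at 4 h with 146.9, the Npy2r _f_at probe set is highest at 6 h with 1447, and Htr3a stays between 352.2 and 402.6.

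Set against the 1 h array, no member was 1.5-fold higher or lower at 2 h, a call met by 5.16% of all probe sets upward and 4.80% downward. At 4 h, 3 of 15 members were lower, Chrna7, Npy1r and Oprl1, against 5.0% of all, and 0 were higher, against 3.28% of all. Scaling to a common median gave 3 lower and 1 higher, the Npy2r _f_at probe set, among the 16 receptor probe sets then above 100 on all 4 arrays. At 6 h, 2 members were lower, Htr1d and Htr4, against 5.61% of all, and 1 was higher, Npy2r, against 3.64%. The 3 comparisons share the 1 h array.

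At 4 h more members read below their 1 h value than above it. On the 2, 4 and 6 h arrays their median log2 difference from 1 h was −0.01, −0.27 and −0.12, where that of all 6456 probe sets was 0.00, −0.01 and −0.01. At 4 h, 11 of 15 members were below 1 h, while 48.5% of all probe sets were above it. From 4 h to 6 h the median was 0.15, with 11 members higher at 6 h. The 4 h array was the lowest for 7 members (Chrna7, Gabbr1, Htr3a, Htr5a, Htr7, Npy1r and Oprl1) and the highest for 1, while 24.4% of all probe sets were lowest and 23.0% highest there. Among the 10 G protein-coupled receptor genes the median at 4 h was −0.30 over 11 probe sets, and among the 4 channel genes it was −0.26. Raising the level limit to 200 left 10 genes and a median of −0.15 at 4 h and 0.10 at 6 h, so the sign at 6 h depended on which members were taken. On the same array the neocortical markers summed lowest, as given above. The CA1 pyramidal markers and those of dentate granule cells and CA3 summed highest there. The part of each was not tested.

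**Figure D3:**
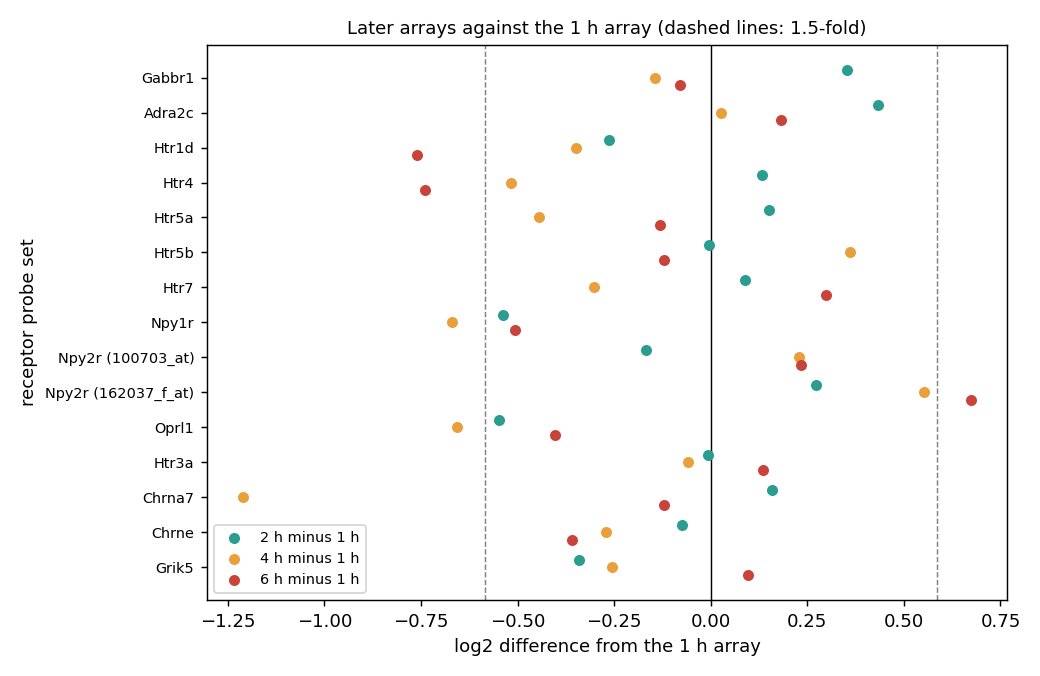
Log2 difference of the 2, 4 and 6 h arrays from the 1 h array for each receptor probe set, 1 point per array, with a solid line at 0 and dashed lines at 1.5-fold. At 4 h, 11 of 15 points lie left of 0, and Chrna7 lies farthest left at −1.21.

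Over the 4 arrays, 8 of 15 members spanned at least 1.5-fold, or 53.3%, against 28.0% of all probe sets. Spans were wider among dim probe sets, and 11 of the 15 members had a mean intensity under 500. Between means of 200 and 500, 6 of 9 members spanned 1.5-fold, against 42.6% of all. Between 100 and 200 it was 1 of 2, against 53.0%, and at 500 and above 1 of 4, against 12.4%. The median span was 1.51-fold for the members and 1.32-fold for all. Htr7, at 1.52-fold, and Htr5a, at 1.51-fold, lay just past the limit. Without the 6 h array the count was 5, losing Htr1d, Htr7 and Npy2r. With the 11 plain probe sets alone, whose suffix is _at, it was also 5. One-way courses that spanned 1.5-fold were the upward one of the Npy2r _f_at set, a kind found in 0.790% of all probe sets, and the downward one of Htr1d, a kind found in 1.63%.

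**Figure D4:**
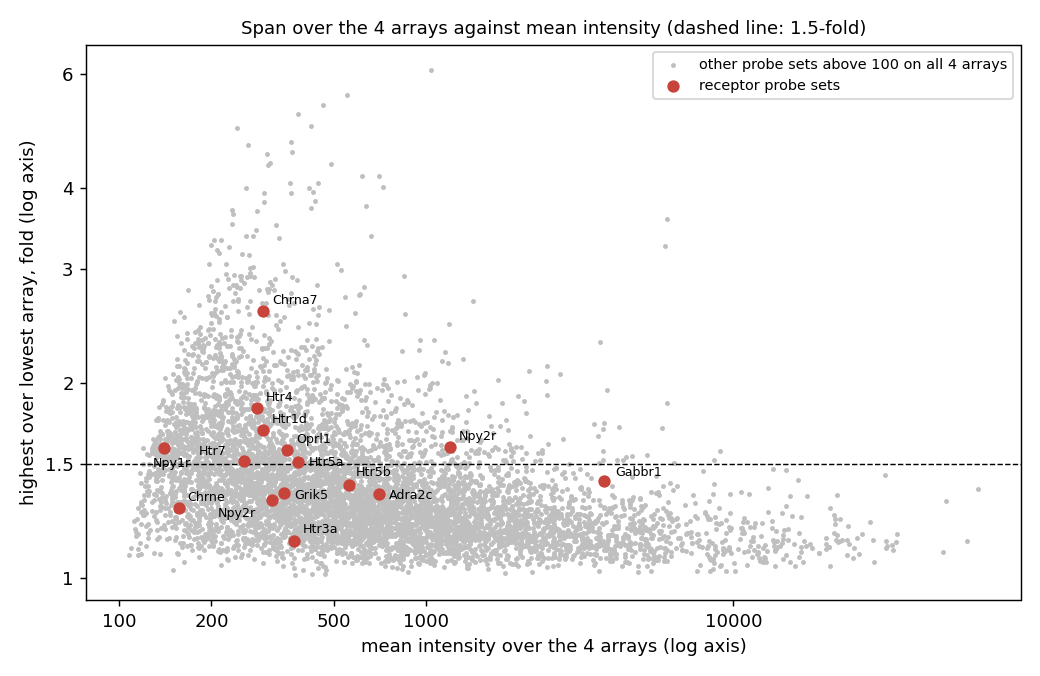
Highest over lowest of the 4 arrays (log axis) against mean intensity over the 4 arrays (log axis), 1 point per probe set above 100 on all arrays, with the 15 receptor probe sets in red and a dashed line at 1.5-fold. Receptors lie among the other probe sets of like intensity, with Chrna7 at 2.58-fold and Htr3a at 1.14-fold.

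The proteins that carry receptor signals onward were taken from a list. Of 43 listed transducers (G protein subunits, arrestins, receptor kinases, phospholipases C beta and the potassium channels they open), 31 had a probe set and 20 were above 100 on all arrays. Of these, 2 spanned 1.5-fold, against 28.0% of all probe sets and 12.4% of those with a mean of 500 or more, where 16 of the 20 lay. Their median span was 1.23-fold. The 2 that spanned 1.5-fold were Kcnj9 and Gng11. Kcnj9, a subunit of the potassium channel that Gi-coupled receptors open, read 390.6, 184.1, 173.8 and 261.5 on a probe set with the suffix _r_at. Gng11, a G protein gamma subunit, read 215.9, 102.2, 179.4 and 153.5. Both were highest at 1 h and at least 1.5-fold lower at 2 h, a call met by 4.80% of all probe sets. None was 1.5-fold higher at 2, 4 or 6 h than at 1 h, against 5.16%, 3.28% and 3.64% of all. Gnao1, the main G protein alpha subunit of brain, read 13709, 15094, 13345 and 13234, a span of 1.14-fold.

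Genes that make or remove the ligands differed one by one. Of 19 listed for synthesis and neuropeptide precursors, 7 were measured and 4 spanned 1.5-fold, against 28.0% of all probe sets. The 4 were dim, with means between 100 and 500. Of all probe sets, 53.0% spanned 1.5-fold at means of 100 to 200 and 42.6% at 200 to 500. Pomc, the precursor of beta-endorphin, read 225.3, 319.2, 178.9 and 116.2, and Pdyn, the precursor of the dynorphins, read 199.3, 203.1, 133.4 and 133.5. Both were lower on the 2 later arrays than on the 2 earlier. Daglb, which makes the endocannabinoid arachidonoylglycerol, read 381.7, 287.1, 222.9 and 267.8, and Ddc, which completes the synthesis of dopamine and serotonin, read 254.5, 173.6, 151.3 and 226.7. Both were lowest at 4 h, and at 4 h these 2 were the ones of the list at least 1.5-fold below 1 h, a call met by 5.0% of all. Of 25 listed for clearance and transport, 8 were measured and 3 spanned 1.5-fold, against 28.0% of all probe sets. Most of the 8 had a mean of 500 or more, where 12.4% of all probe sets spanned 1.5-fold. The 3 differed in course. Glul, which turns glutamate into glutamine in astrocytes, read 803.8, 411.0, 568.8 and 660.6 on a probe set with the suffix _r_at, lowest at 2 h. Slc1a2, the glutamate transporter of astrocytes, read 248.0, 383.5, 339.2 and 321.3, highest at 2 h. Ache, which breaks down acetylcholine, read 418.1, 532.3, 538.8 and 659.9, higher at each later time, with 6 h 1.58-fold above 1 h. Of 20 listed accessory proteins, 7 were measured and 0 spanned 1.5-fold, on the same background of 28.0%. Most of the 7 also had a mean of 500 or more, where the share was 12.4%.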

How the data were processed

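Total RNA from 4 samples was read on arrays of 12488 probe sets, of which 66 are controls. The deposited table holds linear intensity values which the authors had equalised between arrays, as the rescaling factors below were 0.999 to 1.001. On the 1 h array their mean without the top and bottom 2% was 500.3. How the authors computed the intensities, and whether probe sets were called detected, is not given in the sources used here. Gene symbols came from the platform's annotation, which gave 1 symbol to 10833 probe sets, several to 396 and none to 1193. Gene identifiers of all 53 receptor probe sets matched RefSeq entries, and 53 symbols were unchanged.

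Arrays were rescaled to the same trimmed mean without the controls (factors 0.999 to 1.001), and folds are ratios of these scaled intensities. Comparisons used probe sets above 100 on all 4 arrays. With 1 array per time no test was run, and precision is limited by having 4 arrays. All members could be named; for listed genes with several probe sets, the one with the highest mean was used. Members and lists were chosen with earlier results of these data known. Alternatives were other scalings, level limits of 50 and 200, fold limits of 5 over 4 and of 2, 1 probe set per gene, the mean over members, and leaving out the 2 h or 6 h array. Counts for plain probe sets and without Chrna7 were added after the data were seen. Promoter sequences are from RefSeq (GRCm38.p6), and chromosome 18 was left out. Steps were tested on simulated data. Tools were pandas 2.3.3 and NumPy 2.4.6 under Python 3.11.15, with figures from matplotlib 3.10.9.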

Additional observations from a re-analysis of the deposited data

How the results depend on the processing

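Of 84 alternative values, 61 stayed within 1.5 times the main count or within 0.1 (log2) of the main median. Among the 84, 5 medians took the other sign. For the median at 2 h against 1 h, near 0 at −0.01, this occurred under 4 settings: 0.01 at a common median, 0.02 with quantile normalization, 0.04 with 1 probe set per gene and 0.08 at a level limit of 50. The fifth was the 6 h median at a level limit of 200, below. Counts did not move by over 1.5 times with the values as deposited or with 1 probe set per gene. Scaling to a common median, which shifted the 6 h array by 0.12 (log2) against the 2 h array over all probe sets, left 1 one-way course, Npy2r, in place of 2. Quantile normalization gave 1 probe set past 1.5-fold at 2 h over 1 h, Npy1r, in place of 0. Under each of these 2 scalings, 16 receptor probe sets were above 100 on all 4 arrays in place of 15. With a level limit of 200, the median difference from 1 h was −0.15 at 4 h and 0.10 at 6 h, against −0.27 and −0.12 in the main setting. With that limit 5 probe sets spanned 1.5-fold in place of 8, 1 differed 1.5-fold at 4 h from 1 h in place of 3, and 0 stood apart in place of 1, since Chrna7 at 146.9 was then outside. With a limit of 50, 14 spanned 1.5-fold, 6 stood apart at a time, and 3, 6 and 6 differed from 1 h at 2, 4 and 6 h, from more and dimmer probe sets. A lower fold limit, 5 over 4, gave 14 that spanned it, 6 apart, and 5, 8 and 6 that differed from 1 h at 2, 4 and 6 h. A fold limit of 2 gave 1 that spanned it, 0 one-way courses, and 1 and 0 that differed from 1 h at 4 and 6 h. Without the 6 h array 5 spanned 1.5-fold, and among plain probe sets alone 5 did. No paired analysis was possible because each time has 1 array. Without detection calls, a value near or below 100 cannot be told from background binding.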

Other observations

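Receptor probe sets above 100 on some arrays only are given as readings, with no fold. Their readings below 100 cannot be told from background binding. The dopamine receptor Drd4 read 210.5, 79.5, 301.0 and 308.4 from the first array to the last, low on the 2 h array alone. Its relative Drd2 read 123.9, 147.2, 99.6 and 111.2, all near the limit. Chrna6, a nicotinic subunit known from dopamine neurons, read 203.3, 75.6, 129.3 and 107.6, and was also lowest at 2 h. Chrm1, the muscarinic receptor of pyramidal neurons, read 164.9, 173.4, 88.1 and 150.3, with the 4 h value below 100. Chrm4, a Gi-coupled muscarinic receptor, read 124.9 at 1 h and 23.8 to 41.2 later. Adra1b, a Gq-coupled adrenergic receptor, read 131.8 at 1 h and 35.2 to 69.2 later, and Hrh1, a Gq-coupled histamine receptor, read 118.1 at 1 h and 12.8 to 69.2 later. These 3 were above 100 at 1 h alone. Htr1b, a Gi-coupled serotonin receptor of axon terminals, read 152.0, 99.6, 33.3 and 108.6, below 100 at 2 and 4 h. Hrh2, a Gs-coupled histamine receptor, read 83.2, 102.1, 51.3 and 148.7, below 100 at 1 and 4 h. The other 7 probe sets of this kind, for Chrnd, Chrng, Chrne, Grik2, Grik5 and Npy5r, stayed at or below 161.2. None of the courses given here has a second probe set to set beside it.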
